A study of Mus musculus with 18 samples.

Results

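The transcripts of the CXC chemokine genes *Cxcl1*, *Cxcl2*, *Cxcl3*, *Cxcl10* and *Cxcl16* were measured in RAW 264.7 cells, an established mouse macrophage line, under 6 conditions. The 5 genes were taken by name from the gene count table, where each name occurred once. They are 5 of the 56748 genes listed, of which 27701 had at least 1 count in any library. CXC chemokines are small signalling proteins that guide leukocytes along a gradient, and macrophages release them after sensing microbial products. *Cxcl1*, *Cxcl2* and *Cxcl3* encode ligands of the receptor Cxcr2 that attract neutrophils, *Cxcl10* encodes an interferon-inducible ligand of Cxcr3 that attracts activated T cells and natural killer cells, and *Cxcl16* encodes a membrane-bound ligand of Cxcr6 that also binds oxidized lipoprotein. Transcription of several of them is known to depend on NF-κB, and that of *Cxcl10* also on interferon signalling.

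The study asked how tert-butylhydroquinone (TBHQ), a phenolic food preservative that activates the Nrf2 antioxidant response, altered the response of these cells to a bacterial and to a viral mimic. Bulk RNA was sequenced in 18 libraries, 3 for each condition, and the deposited values label all of them WT. Control cells received no treatment. TBHQ cells were given 5 µM TBHQ and harvested after 4 h. LPS cells received 0.1 µg/mL lipopolysaccharide, a ligand of Toll-like receptor 4, for 12 h, and PIC cells received 20 µg/mL polyinosinic-polycytidylic acid, a double-stranded RNA mimic, for 12 h. LPS+TBHQ and PIC+TBHQ cells had 4 h of 5 µM TBHQ followed by 12 h with the stimulus. TBHQ alone was therefore harvested 12 h before the pretreated and stimulated cells, and time of harvest and stimulus cannot be told apart between them. Control had medium only and was kept to the 12 h schedule, so that TBHQ and Control differ in time of harvest too. TBHQ was dissolved in DMSO, and no DMSO control was named for the sequencing. Its solvent therefore cannot be told apart from TBHQ against medium only, LPS alone or PIC alone.

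Total counts ran from 14423390 to 18851626 per library. A library with 3 counts or fewer for a gene was taken to be at the detection floor, since a count of 0 allows up to 3. The label of the cells was checked against markers, with 8 of 8 macrophage markers above the floor in every library, a summed level of 4401 to 5694 FPKM (fragments scaled to gene length and to library size) and *Lyz2* as the most abundant. No marker of T cells, B cells, fibroblasts or epithelium was above the floor in every library, and *Cd3e*, *Cd8a*, *Col1a2*, *Krt8*, *Krt18* and *Cdh1* had no count at all. Of 5 neutrophil markers, *S100a9* and *Ly6g* had no count and *S100a8* averaged 30.8 counts, and the summed level of the 5 was 0.282 to 6.01 FPKM. The mean level of *S100a8* went with the stimuli, at 0.777 FPKM in Control and 0.454 with TBHQ against 3.26 under LPS, 5.59 under PIC, 3.46 in LPS+TBHQ and 3.79 in PIC+TBHQ. Its part in the results for the members was not tested. Of 4 endothelial markers, *Kdr* was above the floor throughout at a mean of 15.6 counts.

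*Cxcl1* (ENSMUSG00000029380) was at the detection floor in 17 of 18 libraries. No count was found in the 3 Control libraries. The TBHQ libraries had 1, 2 and 0 counts and the LPS libraries 0, 1 and 0. In LPS+TBHQ there were 2, 2 and 0, and in PIC+TBHQ 0, 0 and 1. The number stayed at or under 3 in all of these. With PIC the libraries had 0, 1 and 7 counts, so that 1 library alone rose above the floor. The gene did not pass the filter on low counts and was not tested, and no fold is given for it. The other 4 members were tested.

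*Cxcl3* (ENSMUSG00000029379) was at the floor in Control and TBHQ and above it in all 12 stimulated libraries. The Control libraries had no count and the TBHQ libraries had 2, 1 and 0. The LPS libraries had 19, 20 and 14 counts and those of LPS+TBHQ 28, 21 and 17. In PIC there were 55, 58 and 75, and in PIC+TBHQ 69, 55 and 65. Libraries given PIC, with or without TBHQ, stood above all those given LPS, while the libraries with and without TBHQ overlapped within each stimulus. In FPKM, the level of *Cxcl3* was 0.353 ± 0.0642 (SD, n = 3) under LPS alone and 0.372 ± 0.101 after TBHQ and LPS, against 1.20 ± 0.0579 under PIC alone and 1.18 ± 0.0914 after TBHQ and PIC. Against the floor of 3 counts in each Control library, *Cxcl3* was at least 6.62-fold higher with LPS and at least 6.97-fold higher in LPS+TBHQ. It was at least 22.4-fold higher with PIC and at least 22.2-fold higher in PIC+TBHQ.

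*Cxcl2* (ENSMUSG00000058427), which encodes macrophage inflammatory protein 2, was the most abundant member in every condition. In FPKM, the Control libraries measured 72.7, 55.0 and 58.5 and the TBHQ libraries 121, 112 and 122. The LPS libraries measured 975, 1029 and 790 FPKM and the LPS+TBHQ libraries 848, 791 and 777. The PIC libraries measured 1700.4, 1656 and 1901 FPKM and the PIC+TBHQ libraries 995, 1035 and 1069.6. All TBHQ libraries lay above all Control libraries, and all PIC+TBHQ libraries lay below all PIC libraries. The LPS+TBHQ libraries overlapped those with LPS alone, and so did the PIC+TBHQ libraries. From high to low, the order of *Cxcl2* was PIC, PIC+TBHQ, LPS, LPS+TBHQ, TBHQ and Control, and the neighbours PIC+TBHQ and LPS, and LPS and LPS+TBHQ, overlapped.

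The library counts of *Cxcl10* (ENSMUSG00000034855), the interferon-inducible member, were 138, 121 and 118 in Control and 206, 191 and 218 with TBHQ. They were 185, 188 and 160 under LPS and 77, 83 and 82 in LPS+TBHQ. The PIC libraries had 1064, 1177 and 1432, and those of PIC+TBHQ 446, 432 and 432. No library was near the floor, PIC libraries were the highest, and the LPS+TBHQ libraries were the lowest of all, under every Control library. As a level, *Cxcl10* measured 3.46 ± 0.468 FPKM (SD, n = 3) in Control, 5.41 ± 0.249 with TBHQ, 5.52 ± 0.479 under LPS and 36.6 ± 1.72 under PIC. After pretreatment it measured 2.11 ± 0.0929 in LPS+TBHQ and 12.8 ± 0.777 in PIC+TBHQ. In this order of levels only LPS and TBHQ overlapped.

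*Cxcl16* (ENSMUSG00000018920) was above the floor in every library. Its counts were 227, 247 and 238 in Control and 260, 235 and 293 with TBHQ. The LPS libraries had 279, 321 and 341, and those of LPS+TBHQ 214, 190 and 265. Under PIC there were 338, 406 and 470, all above the 235, 191 and 259 of PIC+TBHQ. The mean levels were 4.86 ± 0.181 FPKM (SD, n = 3) in Control, 5.17 ± 0.477 with TBHQ, 7.26 ± 0.707 under LPS and 9.02 ± 0.752 under PIC. They were 4.34 ± 0.613 in LPS+TBHQ and 4.95 ± 0.458 in PIC+TBHQ. On this scale the LPS and PIC libraries stood above all others and apart from each other, while TBHQ, PIC+TBHQ, Control and LPS+TBHQ overlapped as neighbours.

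**Figure D1:**
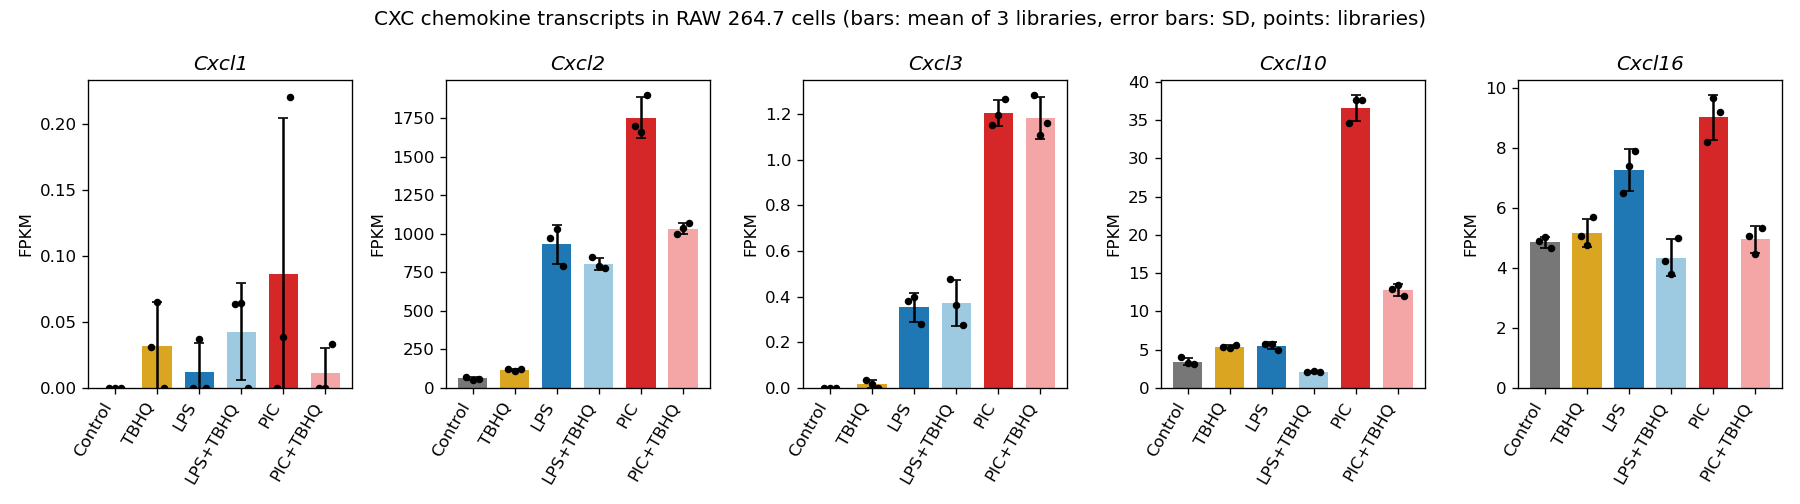
Level of each CXC chemokine transcript in FPKM (vertical axis, a separate scale from 0 for each gene) in the 6 conditions, with bars for the mean of 3 libraries, error bars for the SD and points for libraries. *Cxcl2* reached 1753 FPKM with PIC while *Cxcl3* reached 1.20, and *Cxcl1* stayed at the detection floor in 17 of 18 libraries.

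FPKM divides by a length, but not by the same kind of length in each member. The length used was the whole span of the gene for *Cxcl1* (1875 bases), *Cxcl2* (2068), *Cxcl3* (3498) and *Cxcl10* (2252), and 3021 of 6002 bases for *Cxcl16*. The longest protein-coding transcripts have 953, 1859, 1016, 1353 and 2699 bases in the same order. FPKM puts *Cxcl1*, *Cxcl3* and *Cxcl10* lower against *Cxcl2* and *Cxcl16* than these longest transcripts would. *Cxcl2* and *Cxcl10* also have shorter coding transcripts, of 1109 and 1094 bases. Which of them were expressed was not tested, and the direction for *Cxcl10* against *Cxcl2* depends on it. On the FPKM scale, *Cxcl2* made up 88.2% of the summed FPKM of the 5 genes in Control, 91.8% with TBHQ, 98.6% under LPS and 97.4% under PIC. Its share was 99.2% in LPS+TBHQ and 98.2% in PIC+TBHQ. Among all 56748 genes, the FPKM of *Cxcl2* ranked 788 in Control, 363 with TBHQ, 29 under LPS and 17 under PIC, and 33 in LPS+TBHQ and 27 in PIC+TBHQ.

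Of 1859 words of 50 bases in the protein-coding transcripts of *Cxcl2*, 61 also occur in *Cxcl3*. They are 6.31% of the 967 words of *Cxcl3*, so that some fragments could be counted for either gene. How many counts of *Cxcl3* came from *Cxcl2* was not tested. For every 1000 counts of *Cxcl2* there was no count of *Cxcl3* in the Control libraries and 0.468, 0.264 and 0 in those of TBHQ. There were 0.663, 0.655 and 0.599 under LPS and 0.955, 0.773 and 0.603 in LPS+TBHQ. There were 1.15, 1.22 and 1.13 under PIC and 2.18, 1.81 and 1.83 in PIC+TBHQ. All PIC+TBHQ libraries were above all PIC libraries in this ratio. *Cxcl10* shares 5.54% of its words with *Art3*, a gene on the other strand with 0 to 2 counts. *Cxcl16* shares 503 of 2513 words with *Zmynd15*, on the other strand with 9 to 47 counts, so that fragments of these pairs may be told apart only by strand. The paper describes the libraries as strand-specific, but the strand setting of the counting was not given in the sources used here.

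Both stimuli raised every tested member above Control. With LPS, *Cxcl2* rose by 3.90 on the log2 scale (SE 0.17, FDR 1.23e-30), where FDR is the p of the quasi-likelihood test in edgeR, adjusted over 13691 genes by Benjamini-Hochberg. *Cxcl10* rose by 0.67 (SE 0.13, edgeR FDR 1.46e-06) and *Cxcl16* by 0.57 (SE 0.089, edgeR FDR 1.29e-05) on the log2 scale. *Cxcl3*, with its bound given above, passed at an edgeR FDR of 7.28e-09. In each of the 4 genes all 3 LPS libraries were above all 3 Control libraries. Thus 4 of 4 tested members were called higher with LPS, beside 24.0% of all tested genes. Under the study's stricter rule for comparisons with the control (FDR below 0.01 and log2 fold change above 2), *Cxcl2* and *Cxcl3* were called, beside 1.34% of all tested genes.

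With PIC, *Cxcl2* rose by 4.80 on the log2 scale (SE 0.14, edgeR FDR 1.88e-33), a larger rise than any other member whose fold could be measured. *Cxcl10* rose by 3.39 (SE 0.12, edgeR FDR 4.47e-28) and *Cxcl16* by 0.88 (SE 0.076, edgeR FDR 1.43e-09) on the log2 scale. *Cxcl3* passed at an edgeR FDR of 3.47e-14. Again 4 of 4 tested members were called higher and their PIC libraries were all above those of Control, beside 28.6% of all tested genes. The stricter rule called *Cxcl2*, *Cxcl3* and *Cxcl10*, beside 2.70% of all tested genes. The median log2 fold change of the tested members was 2.29 with LPS and 4.10 with PIC, or 1.70 and 3.94 with *Cxcl3* set to its bound, beside medians of -0.0040 and -0.015 over all tested genes. Scaling by total counts in place of TMM (trimmed mean of M-values) shifted the median of all genes to -0.23 with PIC and to -0.15 in PIC+TBHQ against Control, and all 4 members stayed called with PIC. Whether more cells expressed a gene or each cell held more of its RNA cannot be told apart in bulk samples.

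The stimuli were also compared directly. *Cxcl10* was 2.72 higher on the log2 scale with PIC than with LPS (SE 0.083, edgeR FDR 1.12e-24), *Cxcl3* 1.75 higher (SE 0.15, edgeR FDR 4.41e-06) and *Cxcl2* 0.90 higher (SE 0.13, edgeR FDR 3.38e-13). *Cxcl16* was 0.30 higher (SE 0.11, edgeR FDR 0.0154). All PIC libraries were above all LPS libraries in each of the 4, so that 4 of 4 tested members were called higher with PIC, beside 14.9% of all tested genes, with a median of 1.33 beside -0.0087. The call for *Cxcl16* was lost with scaling by total counts (0.17, edgeR FDR 0.149), where the median of all genes moved to -0.14. It was also lost without LPS replicate 1 (0.23, edgeR FDR 0.115) and without PIC replicate 2 (0.26, edgeR FDR 0.0819), within a range of 0.00823 to 0.149 over the alternatives.

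Among cells pretreated with TBHQ, 3 members were called higher with PIC than with LPS. *Cxcl10* was 2.60 higher on the log2 scale with PIC+TBHQ than with LPS+TBHQ (SE 0.061, edgeR FDR 4.68e-21), *Cxcl3* 1.67 higher (SE 0.22, edgeR FDR 6.29e-06) and *Cxcl2* 0.36 higher (SE 0.048, edgeR FDR 7.17e-05). For *Cxcl16* the difference was 0.19 (SE 0.14, edgeR FDR 0.221), and its libraries overlapped. These 3 of 4 tested members stand beside 11.9% of all tested genes, and the median was 1.02 beside 0.0061.

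In TBHQ alone, 2 of the members were above Control. *Cxcl2* rose by 0.93 on the log2 scale (SE 0.13, edgeR FDR 2.77e-12) and *Cxcl10* by 0.65 (SE 0.11, edgeR FDR 5.83e-06), each with all 3 TBHQ libraries above all 3 Control libraries. TBHQ and time of harvest cannot be told apart in this comparison. *Cxcl16* differed by 0.087 (SE 0.080, edgeR FDR 0.59), with overlapping libraries. *Cxcl3* was at the floor in both groups and is given no fold. The 2 genes called higher of 4 tested stand beside 14.2% of all tested genes, and none was called lower, beside 14.8%. Without *Cxcl3*, the members' median was 0.65, beside a median of -8.6e-05 over all tested genes.

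After LPS, TBHQ pretreatment lowered *Cxcl10* and *Cxcl16*. *Cxcl10* fell by 1.39 on the log2 scale (SE 0.082, edgeR FDR 3.62e-12) and *Cxcl16* fell by 0.74 (SE 0.14, edgeR FDR 5.77e-07), both with all LPS+TBHQ libraries below all LPS libraries. *Cxcl3* differed by 0.069 (SE 0.25, edgeR FDR 0.911). *Cxcl2* was called lower at -0.21 (SE 0.12, edgeR FDR 0.0175), but its libraries overlapped and the call was lost in 7 of 15 alternatives, whose edgeR, DESeq2 or limma FDR ran from 8.21e-10 to 0.191. DESeq2 gave an FDR of 0.174 and limma gave 0.165 on log2(FPKM + 1) and 0.167 on log2(FPKM + 0.1). Leaving out LPS replicate 1 gave -0.18 (edgeR FDR 0.091), LPS replicate 2 -0.13 (0.191), LPS+TBHQ replicate 2 -0.20 (0.0637) and LPS+TBHQ replicate 3 -0.19 (0.0837). Counting *Cxcl2*, 3 of 4 tested members were called lower, beside 12.2% of all tested genes, with a median of -0.48 beside 0.0023.

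After PIC, the same 3 members were lower with TBHQ pretreatment. *Cxcl10* fell by 1.51 on the log2 scale (SE 0.063, edgeR FDR 1.45e-18), *Cxcl16* fell by 0.85 (SE 0.11, edgeR FDR 1.52e-08) and *Cxcl2* fell by 0.75 (SE 0.067, edgeR FDR 2.6e-11). In all 3 genes every PIC+TBHQ library was below every PIC library. *Cxcl3* differed by -0.015 (SE 0.073, edgeR FDR 0.97), with overlapping libraries, and by 0.053 when scaled by total counts. The 3 members called lower of 4 tested stand beside 15.5% of all tested genes, and the members' median of -0.80 beside 0.0089.

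The difference between the TBHQ effects under the 2 stimuli was tested as an interaction. For *Cxcl2* the effect under PIC was lower than that under LPS by -0.54 on the log2 scale (SE 0.14, edgeR FDR 0.000511), 1 of 4 tested members, beside 1.01% of all tested genes. With limma this call was lost, at -0.56 on either scale, with an FDR of 0.0631 on log2(FPKM + 1) and 0.0695 on log2(FPKM + 0.1), in a range of 1.02e-37 to 0.0695 over 21 alternatives. The differences for *Cxcl10* (-0.12, SE 0.10, edgeR FDR 0.762), *Cxcl16* (-0.11, SE 0.18, edgeR FDR 0.803) and *Cxcl3* (-0.084, SE 0.26, edgeR FDR 0.955) did not pass. The members' median was -0.12, beside 0.0091 over all tested genes.

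The TBHQ effect under a stimulus was also compared with that of TBHQ alone, in a test added after the data were seen. Under LPS, the effect was lower than without a stimulus by -1.14 on the log2 scale for *Cxcl2* (SE 0.18, edgeR FDR 6.48e-11), -2.03 for *Cxcl10* (SE 0.14, edgeR FDR 1.34e-12) and -0.83 for *Cxcl16* (SE 0.16, edgeR FDR 5.95e-05). These are 3 of 4 tested members, beside 9.33% of all tested genes. Under PIC the differences were -1.68 for *Cxcl2* (SE 0.15, edgeR FDR 1.77e-15), -2.15 for *Cxcl10* (SE 0.13, edgeR FDR 8.8e-16) and -0.94 for *Cxcl16* (SE 0.13, edgeR FDR 5.07e-06), again 3 of 4, beside 12.5% of all tested genes. Both comparisons use the same Control and TBHQ libraries. For *Cxcl3* no size is given, since its unstimulated libraries were at the floor, and it was not called in either. The pretreated and stimulated cells were harvested 12 h after the TBHQ cells, and the delay cannot be told apart from the stimulus.

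**Figure D2:**
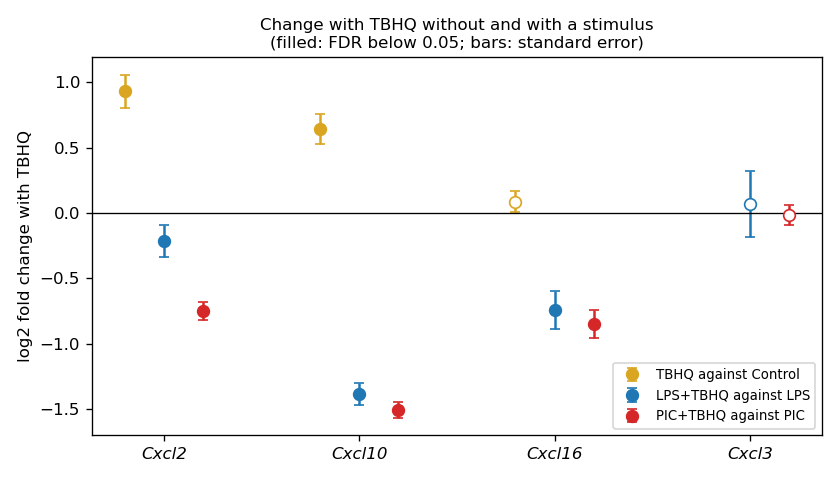
Log2 fold change with TBHQ (vertical axis) of the 4 tested members without a stimulus, after LPS and after PIC, from edgeR, with bars for the standard error of 3 libraries against 3 and filled points for an FDR below 0.05. *Cxcl10* was at 0.65 without a stimulus, -1.39 after LPS and -1.51 after PIC, and *Cxcl3* is not drawn for TBHQ alone because both groups were at the floor.

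In the pretreated and stimulated cells *Cxcl2* and *Cxcl3* were above Control, and *Cxcl10* was above it after PIC and below it after LPS. With LPS+TBHQ, *Cxcl2* was 3.69 higher than Control on the log2 scale (SE 0.13, edgeR FDR 6.54e-30), and *Cxcl3* passed at an edgeR FDR of 4.37e-09. *Cxcl10* fell by 0.72 below Control (SE 0.11, edgeR FDR 6.3e-06), with all 3 libraries under all 3 of Control. *Cxcl16* differed by -0.17 (SE 0.12, edgeR FDR 0.206), and without LPS+TBHQ replicate 3 by -0.29 (edgeR FDR 0.0465), in a range of 0.0465 to 0.626. Thus 2 of 4 tested members were called higher, beside 21.2% of all tested genes, and 1 lower, beside 22.5%. The median was 1.76, or 1.32 with *Cxcl3* at its bound, beside -0.0075.

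With PIC+TBHQ, *Cxcl2* was 4.05 higher than Control on the log2 scale (SE 0.13, edgeR FDR 2.22e-31) and *Cxcl10* 1.88 higher (SE 0.12, edgeR FDR 4.06e-19), and *Cxcl3* passed at an edgeR FDR of 5.14e-14. *Cxcl16* differed by 0.025 (SE 0.085, edgeR FDR 0.865), with overlapping libraries, and by -0.12 when scaled by total counts. So 3 of 4 tested members were called higher, beside 26.4% of all tested genes, with a median of 2.97 beside -0.0012. The level of *Cxcl16* with either stimulus after TBHQ thus overlapped that of untreated cells. These comparisons share the Control libraries with those of LPS and PIC alone.

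Of 10 other CXC ligand genes, *Cxcl12*, *Cxcl13* and *Cxcl15* had no count in any library, *Cxcl9*, a ligand of Cxcr3 like *Cxcl10*, had at most 2, and only *Cxcl11* and *Pf4* were tested. *Cxcl11*, the third ligand of Cxcr3, averaged 20.7 counts and ran from 0 to 88, so that its lowest levels rest on few counts. Its level was 0.0382 FPKM in Control, 0.412 under LPS and 1.46 under PIC, and was called higher with LPS (edgeR FDR 3.22e-07) and with PIC (edgeR FDR 1.4e-13). It was called lower with TBHQ pretreatment after LPS, at 0.0356 FPKM (edgeR FDR 7.05e-07), and after PIC, at 0.254 FPKM (edgeR FDR 1.64e-08), the direction of *Cxcl10* in each. *Pf4*, which encodes platelet factor 4, had 13 to 46 counts. It was called higher with TBHQ pretreatment after PIC, by 1.02 on the log2 scale (edgeR FDR 0.00888), the opposite direction, and not after LPS (0.30, edgeR FDR 0.524). *Cxcl1*, *Cxcl2* and *Cxcl3* lie on 1 strand of chromosome 5 in a row of ligand genes, in the order *Cxcl5*, *Ppbp*, *Pf4*, *Cxcl3*, *Cxcl15*, *Cxcl1* and *Cxcl2*. In that row *Cxcl2* reached 66589 counts in a library, its neighbour *Cxcl1* at most 7 and *Cxcl15* none.

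Of 8 CXC receptor genes, 4 were tested. The receptor of *Cxcl1*, *Cxcl2* and *Cxcl3* was near absent, with at most 1 count of *Cxcr2* in any library. *Cxcr3*, the receptor of *Cxcl10*, was at 6.47 FPKM in Control and 2.84 with LPS, and it fell by 1.19 on the log2 scale with LPS (edgeR FDR 1.29e-08) and by 0.63 with PIC (edgeR FDR 0.000148). *Cxcr6*, the receptor of *Cxcl16*, had 1 to 16 counts. Of the 4 tested, 1 was called higher and 2 lower with LPS, and 2 higher and 2 lower with PIC. The shares of all tested genes were 24.0% higher and 24.1% lower under LPS, and 28.6% higher and 30.1% lower under PIC. With TBHQ pretreatment, 2 receptors were called higher after LPS and none in either direction after PIC. Of all tested genes, 11.7% were called higher and 12.2% lower with pretreatment after LPS, and 15.8% and 15.5% after PIC. These shares are the background for the lists that follow.

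Genes of the pathways known to act on the members were counted from lists. The first list had 11 tested genes of sensors of LPS or double-stranded RNA and their adaptors (*Myd88*, *Tirap*, *Ticam1*, *Ticam2* and *Mavs*). Of these, 6 were called higher and 0 lower with LPS, and 8 higher and 2 lower with PIC. With TBHQ pretreatment 6 were lower and 0 higher after LPS, and 7 lower and 2 higher after PIC. Under TBHQ alone, 6 of the 11 were called lower and 2 higher, beside 14.8% and 14.2% of all tested genes. A list of 13 genes held NF-κB subunits, inhibitors and the kinase complex IKK (*Chuk*, *Ikbkb* and *Ikbkg*). Of these, 10 were called higher with LPS and 11 with PIC, and 9 and 8 of the 13 were lower with TBHQ pretreatment. For both lists the shares of all tested genes were 24.0% and 28.6% higher with LPS and PIC, and 12.2% and 15.5% lower with pretreatment. *Nfkbia*, the inhibitor that NF-κB itself induces, fell by 0.37 on the log2 scale after LPS (edgeR FDR 4.86e-09) and by 0.63 after PIC (edgeR FDR 1.99e-15) with TBHQ, beside -1.39 and -1.51 for *Cxcl10*. With pretreatment, the medians of these 13 genes were -0.25 and -0.26, against -0.48 and -0.80 for the members. With TBHQ alone, 7 of the 13 were called higher and 1 lower, beside 14.2% and 14.8% of all tested genes. In that comparison *Nfkbia* was higher by 0.40 on the log2 scale (edgeR FDR 3.77e-09).

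Of 11 tested genes of the interferon axis, 7 were called higher and 0 lower with LPS, beside 24.0% and 24.1% of all tested genes. With PIC, 9 were called higher and 1 lower, beside 28.6% and 30.1%. With TBHQ pretreatment 7 were called lower after each stimulus, beside 12.2% and 15.5% of all tested genes, and 1 higher after PIC. With TBHQ alone, 0 of the 11 were called higher and 4 lower, beside 14.2% and 14.8% of all tested genes. *Irf7*, a transcription factor that amplifies interferon responses, was lower with TBHQ alone by -0.48 on the log2 scale (edgeR FDR 7.15e-12), whereas *Cxcl10* was higher by 0.65. After LPS, *Irf7* fell by 1.38 with TBHQ (edgeR FDR 6.41e-25) and after PIC it fell by 0.75 (edgeR FDR 5.26e-18). The transcript of interferon beta, *Ifnb1*, had at most 12 counts and was not tested. Of 8 genes of AU-rich mRNA decay, a route that shortens the life of chemokine transcripts, 1 was called higher and 2 lower with TBHQ after LPS, beside 11.7% and 12.2% of all tested genes, and 2 higher and 3 lower after PIC, beside 15.8% and 15.5%. *Zfp36*, whose protein binds AU-rich transcripts, fell by 0.72 after LPS (edgeR FDR 4.48e-15) and by 0.96 after PIC (edgeR FDR 7.6e-19). *Zfp36l2*, a paralog that binds the same elements, was higher by 0.76 after LPS (edgeR FDR 3.24e-10) and by 0.70 after PIC (edgeR FDR 2.69e-09).

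Of 4 tested proteases known to cut CXC ligands, 2 were called higher with TBHQ after LPS, beside 11.7% of all tested genes, and 2 lower after PIC, beside 15.5%. *Adam10*, which sheds the protein of *Cxcl16* from the membrane, differed by -0.023 after LPS (edgeR FDR 0.77) and 0.035 after PIC (edgeR FDR 0.594) on the log2 scale, while the *Cxcl16* transcript differed by -0.74 and -0.85. Of 7 genes known to respond to TBHQ, 7 were called higher with TBHQ alone, beside 14.2% of all tested genes, with a median of 1.80. The stimuli alone raised them too, with 6 called higher under LPS (median 1.28) and 5 under PIC (median 1.16). The shares of all tested genes were 24.0% and 28.6%. In the pretreated cells 6 were called higher and 1 lower, *Hmox1*, against either stimulus alone, beside 11.7% and 12.2% of all tested genes for LPS and 15.8% and 15.5% for PIC.

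The genes whose log2 CPM (TMM-scaled counts relative to library size) was most like that of each member over the 18 libraries were sought among 10451 genes with a mean of at least 50 counts. For *Cxcl2* they were *Cpd* (Pearson r 0.998), *Tnfrsf1b* (0.995) and *Sema3e* (0.995). For *Cxcl3* they were *Fcgr2b* (0.990) and *Hcls1* (0.989). For *Cxcl10* they were *Sdc4* (0.963), *Ptafr* (0.962) and *Icam1* (0.961), and for *Cxcl16* *Dipk2a* (0.941), *Tor1aip1* (0.934) and *Adra1a* (0.912). With Spearman's rho, 2 of these genes remained for *Cxcl10* and 0 for the other members. Over the 6 group means, *Cpd* remained for *Cxcl2* and *Hcls1* for *Cxcl3*, but 0 genes for *Cxcl10* and 0 for *Cxcl16*. Between the members themselves, r was 0.965 for *Cxcl2* and *Cxcl3*, 0.716 for *Cxcl10* and *Cxcl16*, and 0.394 to 0.604 for the other pairs. These values describe 18 libraries that share 6 conditions.

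RefSeq promoter sequences (GRCm38.p6) were found for 4 of the 5 members, and *Cxcl16* had no entry. The 250 bases before the start of each gene were searched on both strands. The longest run of bases shared by *Cxcl1*, *Cxcl2* and *Cxcl3* was GGGAATTTCCC, which matches the NF-κB consensus on both strands and was found in 14 of 32851 promoters, or 0.0426%. It lay 71 to 61 bases before the start of *Cxcl1*, 97 to 87 before that of *Cxcl2* and 73 to 63 before that of *Cxcl3*. The run is thus present both before *Cxcl2*, the most abundant member, and before *Cxcl1*, at the floor in 17 of 18 libraries. The 100 bases before each start are shown because these 3 genes, in 1 stretch of chromosome 5, share this run and differ in level, with the NF-κB match in capitals, 5′ to 3′ on the plus strand at chr5:90891145-90891244, chr5:90903799-90903898 and chr5:90786001-90786100.
Cxcl1: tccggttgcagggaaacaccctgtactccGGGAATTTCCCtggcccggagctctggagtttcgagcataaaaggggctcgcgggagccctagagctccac
Cxcl2: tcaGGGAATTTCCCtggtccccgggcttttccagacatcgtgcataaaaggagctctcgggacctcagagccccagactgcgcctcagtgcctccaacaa
Cxcl3: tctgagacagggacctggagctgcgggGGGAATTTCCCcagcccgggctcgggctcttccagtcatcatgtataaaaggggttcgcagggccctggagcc

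Over these 100 bases, *Cxcl1* and *Cxcl3* were 64.6% identical, *Cxcl1* and *Cxcl2* 52.0% and *Cxcl2* and *Cxcl3* 48.4%. *Cxcl10*, which lies apart on the same chromosome, was 51.7% identical with *Cxcl2*, 47.9% with *Cxcl3* and 46.8% with *Cxcl1*. The NF-κB consensus was found in 7.25% of all promoters. Before *Cxcl10* it matched at 159 to 150 bases and, as overlapping matches, at 104 to 94 bases. An interferon-stimulated response element, GAAANNGAAA, lay 213 to 204 bases before the start of *Cxcl10* and was found in 2.98% of all promoters, but in no other member with an entry. The AP-1 motif TGANTCA (6.75% of all promoters) lay 74 to 68 bases before *Cxcl10*, overlapping a match at 76 to 68 bases to the antioxidant response element core TGACNNNGC (10.2% of all promoters), and neither was found before *Cxcl1*, *Cxcl2* or *Cxcl3*. A match describes the letters only, and binding was not tested. The 220 bases before *Cxcl10* (minus strand, chr5:92348890-92349109) are shown because this member fell with TBHQ under both stimuli, with the response element and the NF-κB matches in capitals, 5′ to 3′.
Cxcl10: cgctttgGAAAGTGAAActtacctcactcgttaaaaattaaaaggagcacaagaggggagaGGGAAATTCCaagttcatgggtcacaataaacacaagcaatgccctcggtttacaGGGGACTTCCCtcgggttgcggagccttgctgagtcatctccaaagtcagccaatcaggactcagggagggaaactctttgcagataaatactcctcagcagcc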

How the data were processed

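Poly(A) RNA of 18 libraries of RAW 264.7 cells was sequenced, 3 for each of 6 conditions, and the authors deposited raw counts per gene. The submitters' processing notes name HISAT2 2.0.5, StringTie 1.3.3b and featureCounts 1.5.0-p3, without their settings. The authors also deposited FPKM. Within a library these values were proportional to counts over gene length. The notes name both GRCm38 and mm39, and of 52073 gene identifiers shared with GENCODE M21 (GRCm38), 50588 had another start, so no position of the count table is printed and promoters carry RefSeq's build.

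Counts were tested in R 4.3.3 with edgeR 4.0.16 (filterByExpr, TMM, glmQLFit and glmQLFTest, 1 coefficient per condition over 18 libraries), with p-values adjusted by Benjamini-Hochberg over the 13691 genes that passed the filter and calls at an FDR below 0.05. Standard errors come from the spread of log2 CPM (prior count of 2) between replicates, which the study calls biological. DESeq2 1.42.0, limma 3.58.1 on log2(FPKM + 1) and log2(FPKM + 0.1), other scalings and filters, a replicate block and leaving out each library were the alternatives. Code was tested on simulated data. Promoters were read with Python 3.11.15 and pandas 2.3.3, aligned with Biopython 1.88, and figures drawn with matplotlib 3.10.9.

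The members and lists were chosen with earlier results of these data known. List genes named singly are up to 4 per list with a mean of at least 50 counts, by mean count, or those whose role is explained. No p-value was adjusted over the members alone. Some genes that these rules select are not reported here.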

Additional observations from a re-analysis of the deposited data

Results flagged for a closer look

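The effect of TBHQ on *Cxcl2* differed between the stimuli by a test of that difference, being lower under PIC than under LPS by -0.54 on the log2 scale. The effect of TBHQ under a stimulus also differed from that of TBHQ alone, by the same kind of test. Under LPS the difference was -1.14 for *Cxcl2*, -2.03 for *Cxcl10* and -0.83 for *Cxcl16*, and under PIC it was -1.68 for *Cxcl2*, -2.15 for *Cxcl10* and -0.94 for *Cxcl16*. For *Cxcl2* and *Cxcl10* the sign itself turned, from a rise with TBHQ alone to a fall after a stimulus, although the call of *Cxcl2* after LPS was lost in 7 of 15 alternatives, with log2 fold changes of -0.32 to -0.13 over all 15. TBHQ alone was harvested at another time than all other groups, so time of harvest cannot be told apart from treatment in these differences from TBHQ alone.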

How the results depend on the processing

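Of the 48 member results, those called in the comparisons with Control kept their call under every alternative that gave a value. The calls lost elsewhere, for *Cxcl2* and *Cxcl16*, are given beside their results. With scaling by total counts, the uncalled differences of *Cxcl16* in PIC+TBHQ against Control (-0.12) and of *Cxcl3* in PIC+TBHQ against PIC (0.053) changed sign. Leaving out 1 library at a time, uncalled log2 differences changed sign as well. *Cxcl16* in PIC+TBHQ against Control ran from -0.036 to 0.093 (-0.0069 without Control replicate 3). *Cxcl3* ran from -0.15 to 0.25 in LPS+TBHQ against LPS (-0.073 without LPS replicate 3) and from -0.083 to 0.024 in PIC+TBHQ against PIC (0.0091 without PIC replicate 3). In the difference between the TBHQ effects under PIC and LPS, *Cxcl3* ran from -0.26 to 0.14 (0.043 without LPS replicate 3) and *Cxcl16* from -0.20 to 0.0079.

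For that difference, 251 genes in all were called, against 380 with no filter on low counts, 147 with limma on log2(FPKM + 0.1) and 160 to 354 without 1 library. The number of members called lower in it was 0 instead of 1 with limma at either pseudocount. In LPS+TBHQ against Control, members called higher were 1 instead of 2 with a mean of at least 50 counts, since *Cxcl3* was not tested there, and members called lower were 1 to 2 without 1 library. With the floor at 1 count, every library was at or under it in 3 groups for *Cxcl1* and in 1 group for *Cxcl3*. The cause of these changes was otherwise not tested.

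Replicate numbers were not stated to pair the libraries. Over 45 pairs of the same number, the correlation of deviations from the group mean ran from -0.072 to 0.14. Of these, 2 were over 0.1, and such low values do not settle whether libraries were paired. With a replicate block, *Cxcl2* in LPS+TBHQ against LPS was -0.21 (edgeR FDR 0.0134, in the range of 8.21e-10 to 0.191), 274 genes in all were called in the difference between stimuli, and no member call changed. The tests against TBHQ alone were added after seeing the data. Depth limits *Cxcl1* and, without a stimulus, *Cxcl3*, whose changes were not detectable at these counts.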
